A study of Homo sapiens with 4 samples.

Results

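JAG1, NOTCH3, GLI1, LGR5, LGR6, WNT8B and SFRP5 are ligands, receptors, a secreted antagonist and a transcriptional effector of the Notch, Hedgehog and Wnt pathways. They were chosen by symbol from the table of selected genes that the authors deposited, with their values known, and all 7 were found, each in 1 row, among 742 gene symbols. The table came from K562 cells, a human chronic myelogenous leukaemia line, in which the long non-coding RNA HMRHL had been silenced. One group received a scrambled control siRNA and the other an siRNA against HMRHL, with 2 libraries each (4 in all) and RNA taken 36 hours after transfection. Both groups were therefore transfected with an siRNA and were otherwise the same line in the same medium, and the labels leave unstated whether libraries of one treatment were separate cultures. The table gives 1 fold change per gene, read here as log2 and as knockdown relative to scramble, neither of which it states. Values per library, errors, p-values, expression levels and depth were not analysed here, so no difference could be set against the spread between replicates and no test was made.

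The 3 pathways pass signals between cells during development. In Notch signalling a membrane-bound ligand on one cell, such as a Jagged protein, binds a Notch receptor on its neighbour, and the cleaved receptor joins the DNA-binding protein RBPJ to switch on HES and HEY genes. In Wnt signalling a lipid-modified ligand binds Frizzled and LRP co-receptors and stabilises beta-catenin, which acts with TCF and LEF factors; R-spondins binding to LGR receptors strengthen this signal, and secreted Frizzled-related proteins bind Wnt ligands and hold it back. In Hedgehog signalling the ligand releases the membrane protein SMO, which leads to activation of GLI transcription factors, and GLI1 is itself a target of the pathway.

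By role, among the 7 chosen genes only, both ligands and the secreted antagonist were listed lower after HMRHL silencing, and the receptors and the effector were listed higher. The direction is a reading of the table. Turned, with scramble relative to knockdown, the ligands and the antagonist would be higher and the receptors and the effector lower (3 higher and 4 lower). Other listed genes of these roles did not keep to this split. The receptor FZD9 was lower, at -1.53, and the antagonist TRABD2A higher, at 2.58, while the antagonist FRZB was lower, at -1.72, in the authors' deposited table. Among the 7 genes, the 2 values farthest from 0 belonged to the same pathway and pointed in opposite directions. In the authors' deposited table the Notch ligand JAG1 stood at -3.17 and the Notch receptor NOTCH3 at 2.87. In all, 4 of the 7 genes were listed higher and 3 lower. The authors' deposited table held 3.71% of the annotated protein-coding genes, 1.14% as higher and 2.58% as lower. The genes were picked from this list, so their presence and directions are a description. Among all 742 symbols 69.4% were lower, or 30.6% if the direction is turned. The smallest positive value listed was 1.50 and the negative value nearest 0 was -1.15, so negative values entered the list at a smaller size. With 1.50 as the minimum for both signs 59.9% were lower. The median absolute log2 value was 1.87 over the 7 genes and 1.82 over all symbols of the authors' deposited table.

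The receptor NOTCH3 and its ligand JAG1 lie on different chromosomes, and their promoters are shown because they belong to the ligand and the receptor with the largest opposite values. The promoters of SFRP5 and WNT8B are shown because both genes were listed lower and lie on the same chromosome. Each is the RefSeq sequence (GRCh38.p14) from 250 bases before to 50 bases after the gene's start, read 5′ to 3′ on the gene's own strand, with CG dinucleotides in capitals. They span chr20:10673950-10674249 on the minus strand for JAG1, chr19:15200946-15201245 on the minus strand for NOTCH3, chr10:97771950-97772249 on the minus strand for SFRP5 and chr10:100462759-100463058 on the plus strand for WNT8B.
JAG1: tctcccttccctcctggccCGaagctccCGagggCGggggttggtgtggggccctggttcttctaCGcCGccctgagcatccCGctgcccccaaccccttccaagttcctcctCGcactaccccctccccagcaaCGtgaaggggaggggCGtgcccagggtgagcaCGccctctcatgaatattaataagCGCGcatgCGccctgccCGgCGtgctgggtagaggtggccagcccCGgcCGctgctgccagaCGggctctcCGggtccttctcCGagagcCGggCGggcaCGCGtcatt
NOTCH3: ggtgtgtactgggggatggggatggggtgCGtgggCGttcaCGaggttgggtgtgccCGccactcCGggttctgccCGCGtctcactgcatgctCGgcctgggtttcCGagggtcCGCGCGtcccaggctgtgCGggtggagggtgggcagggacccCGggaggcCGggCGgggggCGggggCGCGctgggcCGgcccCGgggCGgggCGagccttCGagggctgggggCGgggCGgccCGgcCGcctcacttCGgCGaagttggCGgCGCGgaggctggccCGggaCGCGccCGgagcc
SFRP5: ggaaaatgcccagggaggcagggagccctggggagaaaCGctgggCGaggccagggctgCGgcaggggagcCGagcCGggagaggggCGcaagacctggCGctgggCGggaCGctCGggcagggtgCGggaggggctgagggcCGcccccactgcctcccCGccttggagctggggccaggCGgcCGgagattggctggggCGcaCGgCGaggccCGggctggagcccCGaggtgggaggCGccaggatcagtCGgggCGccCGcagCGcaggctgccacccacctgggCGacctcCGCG
WNT8B: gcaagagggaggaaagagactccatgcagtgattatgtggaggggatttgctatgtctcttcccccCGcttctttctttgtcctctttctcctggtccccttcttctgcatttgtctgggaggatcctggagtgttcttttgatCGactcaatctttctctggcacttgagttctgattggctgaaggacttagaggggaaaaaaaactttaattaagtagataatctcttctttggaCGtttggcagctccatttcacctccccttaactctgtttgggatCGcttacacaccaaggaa

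The promoters differed in base composition and not along the direction of change. NOTCH3, listed higher, had 37 CG dinucleotides and 78.3% G and C, while SFRP5, listed lower, had 28 and 77.3%. JAG1, also lower, had 24 CG dinucleotides and 68.7% G and C. WNT8B, lower as well, was the poorest of the 4, with 4 CG dinucleotides and 45.7% G and C. The median over 35116 RefSeq promoters of the same length was 14 CG dinucleotides and 58.7% G and C. LGR6, listed higher, has 3 promoter entries with 11, 5 and 9 CG dinucleotides. GLI1 and LGR5 have no entry. The 7 promoter entries of these 5 genes were searched on both strands for letters bound by the factors of these pathways. TGGGAA, the core recognised by RBPJ, was in 0 of 7 entries and in 24.0% of all promoters. CTTTGAT, a TCF and LEF core, was in 0 of 7 and in 2.62% of all promoters. ACCACCC, from the GLI site, was in 0 of 7 and in 4.77% of all promoters, and CACGTG, an E-box that HEY and HES proteins can bind, in 0 of 7 and 7.26%. These counts say only that the letters are not in these windows.

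The Notch ligand JAG1, also called Jagged-1, carries a DSL domain that binds Notch receptors. In the authors' deposited table it stood at -3.17, which is 9.00-fold lower if the value is a log2. By absolute value it ranked 63 of 742, and 37 of the 515 lower symbols. JAG1 (ENSG00000101384.12) spans chr20:10637684-10673999 on the minus strand in GENCODE release 29 (GRCh38), and its longest transcript has 26 exons and 5940 bases. Its exons share 79 bases with those of AL050403.2, an antisense gene on the opposite strand. Of the other 6 Notch ligands on the list (JAG2, DLL1, DLL3, DLL4, DLK1 and DLK2), 0 were in the table. With 3.71% of annotated protein-coding genes listed, this does not set JAG1 apart from them.

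NOTCH3, one of the Notch receptors and in adults best known from vascular smooth muscle, was at 2.87 in the authors' deposited table, or 7.32-fold higher. It ranked 91 of 742 by absolute value and 37 of the 227 higher symbols. JAG1 also held rank 37 within its own direction, but among 515 lower symbols, so the equal rank is not an equal position. The values of JAG1 and NOTCH3 lay 6.04 log2 units apart. NOTCH3 (ENSG00000074181.8) spans chr19:15159038-15200981 on the minus strand, has 33 exons in its longest transcript of 8666 bases, and shares no exon with a gene on the opposite strand. NOTCH1, NOTCH2 and NOTCH4 were not in the table.

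GLI1, the Hedgehog effector, was at 1.53 in the authors' deposited table, or 2.90-fold higher. This is close to the entry of the list: the smallest positive value there was 1.50, and GLI1 ranked 222 of 227 higher symbols. GLI1 (ENSG00000111087.9) spans chr12:57460135-57472262 on the plus strand, and 8 bases of its exons overlap ARHGAP9, a protein-coding gene on the opposite strand. The related GLI2 and GLI3 were not in the table.

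The R-spondin receptors LGR5 and LGR6, leucine-rich repeat proteins of the membrane, were both listed higher. LGR5, known as a marker of intestinal stem cells, was at 1.87 in the authors' deposited table, or 3.67-fold, and ranked 136 of 227 higher symbols. LGR6 was at 1.55 in the authors' deposited table, or 2.92-fold, and ranked 217 of 227. Like GLI1, LGR6 thus stood near the smallest positive value listed, while LGR5 lay in the middle of the higher genes. The third receptor of this group, LGR4, was not listed. LGR5 (ENSG00000139292.12) spans chr12:71439770-71586310 and LGR6 (ENSG00000133067.17) spans chr1:202193901-202319781, both on the plus strand. Exons of LGR5 share 208 bases with the antisense gene AC078860.1, whereas those of LGR6 overlap no gene on the opposite strand.

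WNT8B, a Wnt ligand of the developing forebrain, was at -1.69 in the authors' deposited table, or 3.22-fold lower, and ranked 265 of 515 lower symbols. SFRP5, a secreted Frizzled-related protein that binds Wnt ligands, was at -2.19 in the authors' deposited table, or 4.56-fold lower, and ranked 140 of 515. A ligand and an antagonist of the same pathway were therefore both in the lower part of the list. WNT8B (ENSG00000075290.7) spans chr10:100463041-100483744 on the plus strand with 6 exons, and SFRP5 (ENSG00000120057.4) spans chr10:97766751-97771952 on the minus strand with 3 exons. Neither shares exons with a gene on the opposite strand.

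**Figure D1:**
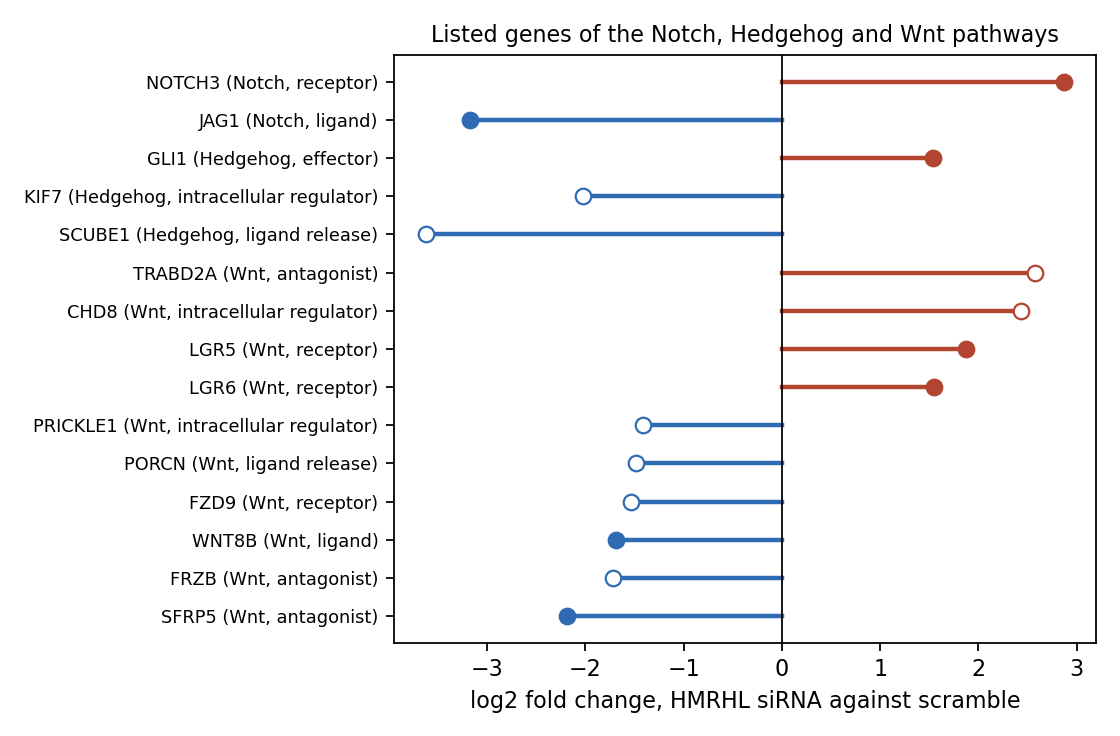
Log2 fold change (horizontal axis, HMRHL siRNA against scramble) of each listed gene of the Notch, Hedgehog and Wnt lists that is reported here, from the authors' deposited table, with 1 value per gene and no error. Filled points are the 7 chosen genes and open points the other 8; JAG1 at -3.17 and NOTCH3 at 2.87 lie farthest apart among the filled points.

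**Figure D2:**
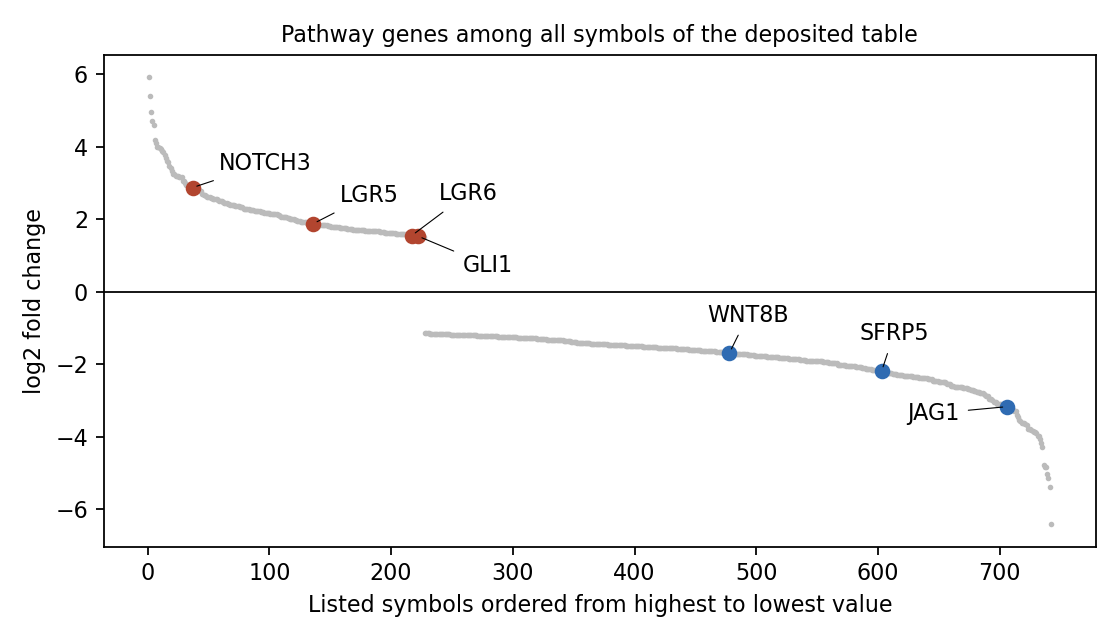
All 742 symbols of the authors' deposited table ordered from the highest to the lowest log2 fold change (grey), with the 7 genes in red (higher) and blue (lower). LGR6 and GLI1, at 1.55 and 1.53, sit at the end of the higher genes next to the gap around 0 in which nothing is listed, and NOTCH3 and JAG1 lie toward the 2 extremes.

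Because relatives of these genes are alike in sequence, reads could in principle be assigned to the wrong family member. No window of 50 bases of the longest transcript of JAG1, NOTCH3, GLI1, LGR5, WNT8B or SFRP5 occurred on the same strand in a transcript of another gene in GENCODE release 29. In LGR6, 14 of 3518 such windows (0.398%) occurred in LINC00475. On the opposite strand, 114 of 4562 windows of LGR5 (2.50%) matched AC078860.1 and 32 of 5891 windows of JAG1 (0.543%) matched AL050403.2. The libraries were made with a stranded kit, but the sources used here do not give the strand setting of the counting.

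LGR5 and LGR6, the pair of close relatives among the 7 genes, had 62.8% identical bases over their aligned coding sequences. Their longest identical coding run was 14 bases, at codons 311 to 315 of LGR5. JAG1 and its unlisted relative JAG2 had 64.6% identical bases and a longest run of 26 bases, at codons 683 to 692 of JAG1. WNT8B and the unlisted WNT8A had 68.1% identical bases and a longest run of 19 bases, at codons 93 to 99 of WNT8B. SFRP5 and the unlisted SFRP1, whose run is not printed, had the highest identity of the pairs compared, 71.5%, and a longest run of 26 bases. The runs of the LGR5, JAG1 and WNT8B pairs are shown in capitals with 20 flanking coding bases on each side, from GENCODE release 29 transcripts. They are printed to show how far each of these pairs can be told apart.
LGR5: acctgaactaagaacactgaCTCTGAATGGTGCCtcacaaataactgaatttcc
LGR6: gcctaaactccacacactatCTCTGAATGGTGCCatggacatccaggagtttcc
JAG1: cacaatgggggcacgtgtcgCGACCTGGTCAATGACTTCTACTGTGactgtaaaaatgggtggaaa
JAG2: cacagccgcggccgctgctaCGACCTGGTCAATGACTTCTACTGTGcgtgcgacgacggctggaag
WNT8B: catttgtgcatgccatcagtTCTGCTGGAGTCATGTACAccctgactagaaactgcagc
WNT8A: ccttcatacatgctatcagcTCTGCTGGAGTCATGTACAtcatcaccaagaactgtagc

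The rest of the pathways was read from lists arranged by role. Of 200 genes on these lists, not counting list genes that are not reported here, 15 were in the authors' deposited table, 6 higher and 9 lower. That is 7.5%, a share raised by the 7 chosen genes, which were picked for being listed. Taking out listed genes only lowers the share in turn. Without the 7 chosen genes, 8 of 193 were listed (4.15%), 2 higher and 6 lower. With the genes not reported here included, it was 10 of 195 (5.13%), 3 higher and 7 lower. The share among annotated protein-coding genes was 3.71%, and with so few genes the difference was not tested. Of the 57 genes on the Notch list, 2 were listed (3.51%), close to the 3.71% of annotated protein-coding genes. Both, JAG1 and NOTCH3, were chosen for being in the table, and 0 of the other 55 appeared. These included 28 genes grouped under receptor processing and modification, such as ADAM10. That group here also holds MIB1, MIB2, NEURL1 and NEURL1B, which act on the ligands. Also among the 55 were 9 nuclear factors, such as RBPJ and MAML1, and 9 target genes of the HES and HEY families. A gene outside the table had not been selected, and its level may or may not have differed.

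For Hedgehog, besides GLI1, the ciliary kinesin KIF7, which regulates GLI proteins, was at -2.03 in the authors' deposited table. SCUBE1, a secreted protein whose relative SCUBE2 helps to release Hedgehog ligands from the cell, was at -3.62 in the authors' deposited table, or 12.3-fold lower, and farther from 0 than any of the 7 genes. The ligands SHH, IHH and DHH were not listed (0 of 3), which says little beside 3.71% of annotated protein-coding genes. Not every listed gene of this pathway is reported here, so no common direction is read from those named.

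The Wnt list had 10 listed genes of 117, with 4 higher and 6 lower. Without the 4 chosen for being in the table it was 6 of 113 (5.31%), 2 higher and 4 lower, beside 3.71% of annotated protein-coding genes, and the difference was not tested. Of the 24 ligands, which here include the R-spondins, WNT8B was the single one listed. Of 26 genes grouped as receptors, LGR5 and LGR6 were higher, while the Frizzled receptor FZD9 was at -1.53 in the authors' deposited table. That group here also holds the ubiquitin ligases ZNRF3 and RNF43 and the planar polarity proteins VANGL1, VANGL2, CELSR1, CELSR2 and CELSR3. Of 20 antagonists, SFRP5 was accompanied by FRZB, another secreted Frizzled-related protein, at -1.72 in the authors' deposited table. TRABD2A, a membrane protease that inactivates Wnt ligands, was at 2.58 in the authors' deposited table, so the antagonists were listed in both directions. PORCN, the acyltransferase that attaches the lipid to Wnt ligands, was at -1.48 in the authors' deposited table. PRICKLE1, a planar polarity protein, was at -1.41 and CHD8, a chromatin remodeller that binds beta-catenin, at 2.43 in the authors' deposited table. The 12 nuclear effectors, TCF7, TCF7L1, TCF7L2 and LEF1 among them, were not listed, and neither was AXIN2, a widely used Wnt target.

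On the chromosomes, the single nearest listed neighbour of JAG1 and of each higher gene had the opposite sign, and that of SFRP5 and of WNT8B the same sign. Among the 3 nearest, 1 shared the sign of JAG1, NOTCH3, GLI1 and LGR5 each, 0 that of LGR6, and all 3 that of SFRP5 and of WNT8B. The counts for SFRP5 and WNT8B are not separate, since GOLGA7B and HPSE2 are in both. The third was ACSM6 for SFRP5, and SFRP5 itself for WNT8B. For JAG1 the nearest was PLCB4, at 2.49 in the authors' deposited table and 1156 kb away, and for NOTCH3 it was PALM3, at -1.92 and 1100 kb away, with KLF2 at 1.54 almost as near, at 1124 kb. SLC26A10 lay 147 kb from GLI1 and stood at -1.89 in the authors' deposited table, and AGAP2, at 2.25 there, lay 251 kb away. KCNMB4, at -1.68, was the nearest to LGR5, at 1005 kb, and LRRN2, at -1.88, the nearest to LGR6, at 2297 kb, in the authors' deposited table. On chromosome 10, SFRP5 and WNT8B are 2691 kb apart with 24 annotated protein-coding genes wholly between them. Of these, GOLGA7B and HPSE2 were listed, at -1.84 and -2.39 in the authors' deposited table, 78.3 kb and 685 kb from SFRP5. This is 8.33% of the genes between, beside 3.71% of annotated protein-coding genes, and rests on very few genes. Over the whole of chromosome 10, 16 of 20 listed genes were lower and 4 higher. Since 515 of the 742 symbols carried a negative value, a neighbour with that sign is the usual case whichever way the direction is read, and no test was made.

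**Figure D3:**
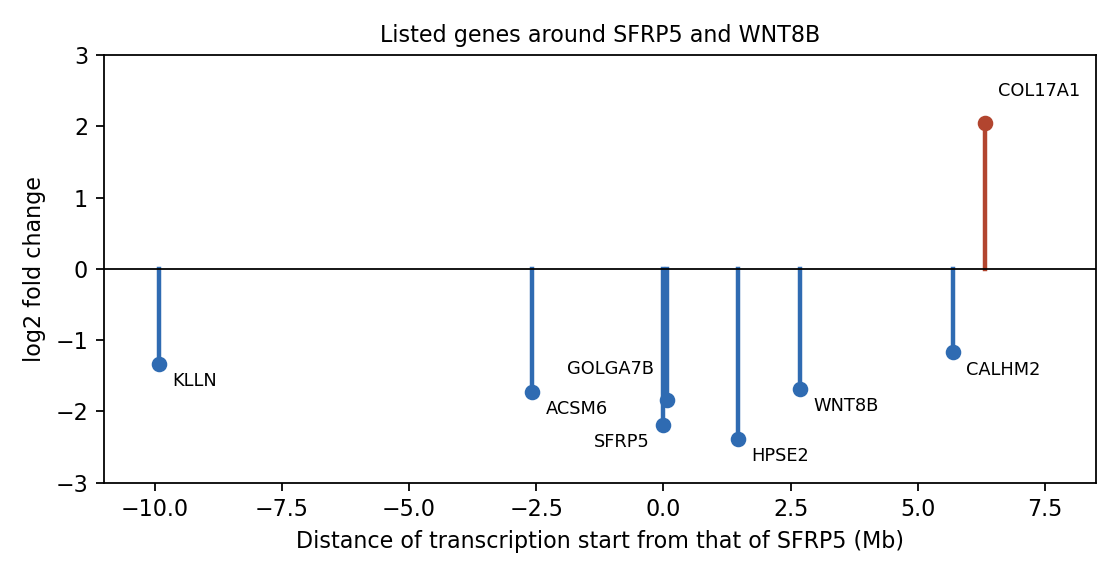
Log2 fold change in the authors' deposited table (vertical axis) of the listed genes on chromosome 10 within 10 Mb of SFRP5, against the distance of their transcription start from that of SFRP5 in Mb. The listed genes from SFRP5 to WNT8B, with GOLGA7B at -1.84 and HPSE2 at -2.39 between them, all lie below 0.

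Neither PHKB, in whose intron HMRHL lies, nor any of 12 marker genes of K562 cells such as HBG1 and GATA1 was in the table. The share of annotated protein-coding genes listed was 3.71%. Both groups were K562 cells, so this absence is no check of the labels. Since the table holds selected genes only, it cannot show whether the markers were expressed or whether HMRHL was lowered.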

How the data were processed

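RNA of K562 cells was sequenced in 4 libraries, 2 per group. The submitters' processing notes name Cufflinks, Cuffdiff, TopHat, Bowtie2, SAMtools 1.3.1 and Trim Galore 0.4.4 and the builds GRCh38 and hg38, without settings or a selection threshold. The authors deposited 1 fold change per row, read here as log2 because both signs occur, unlike in a plain ratio, and Cuffdiff prints log2 values. A signed linear scale is possible, since it would also give both signs and a gap around 0. The sign was read as knockdown relative to scramble.

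The 831 rows were reduced to 742 symbols, since repeated rows held identical values. No differential test was possible without values per library. Symbols were matched to GENCODE release 29 (GRCh38), in which 739 of 19907 protein-coding symbols were listed; this annotation stands in for the genes tested, whose number is not given. Coding sequences of the longest annotated form, without the stop codon, were aligned globally with Biopython 1.88 (match 2, mismatch -1, gap opening -5, extension -1). The sequence steps were tested on simulated sequences. Python 3.11.15, pandas 2.3.3 and matplotlib 3.10.9 were used. The 7 genes, the lists and the rule for naming genes (the 7, all other listed pathway genes, the nearest listed neighbours and overlapping genes) were chosen with earlier results of these data known; the motifs, the relatives compared and the promoters shown were chosen after the values were seen. Further genes of the lists are not reported here and are left out of the counts except where stated. Alternatives were a minimum of 4-fold, an equal minimum in both directions, rows as deposited, older symbols, leaving out genes with opposite-strand overlap, ranks within a direction, a signed linear scale and, added later, the turned direction.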

Additional observations from a re-analysis of the deposited data

How the results depend on the processing

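Of the 7 genes, 1 higher (NOTCH3) and 2 lower (JAG1 and SFRP5) remained at a minimum of 4-fold. Among all symbols 294 of 742 (39.6%) reached that size, so the count is not read as a result about the 7. Without the genes whose exons overlap the opposite strand (JAG1, GLI1 and LGR5), 2 higher and 2 lower remained. With 1.50 as the minimum for both signs all 7 stayed. Of the 15 listed pathway genes, 3 higher and 4 lower remained at 4-fold, beside the same 39.6% of all symbols. With the shared minimum 6 and 7 remained, and rows as deposited and older symbols left 6 and 9. The share of all symbols that were lower was 69.4%, against 71.2% by rows, 59.9% at 4-fold and 59.9% with the shared minimum. Read as a signed linear fold change, the deposited values would themselves be folds, from 1.53 for GLI1 to 3.17 for JAG1. On that scale 0 of the 7 genes would reach 4-fold, and the share of all symbols that would was not counted. The signs would not change. With the direction turned, a reading added after the data were seen, the 7 genes would be 3 higher and 4 lower, the 15 pathway genes 9 higher and 6 lower, and the share of lower symbols 30.6%. No paired analysis was possible because the table holds no values per library, and leaving out replicates was not run for the same reason. Depth, and with it the precision of each value, is unknown.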
